A study of Mus musculus with 24 samples.

Results

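The small leucine-rich proteoglycans and versican were examined in whole-liver RNA-seq of 24 mice. The genes were chosen by symbol and comprised Dcn, Bgn, Lum, Fmod, Ogn, Aspn, Prelp, Podn and Vcan, which were 9 of the 56205 gene rows of the count table. Of these, 8 passed the filter on low counts and were tested among 14109 genes, and Aspn did not pass it. The animals were C57BL/6J mice of both sexes, kept for 20 weeks either on a high-fat diet deficient in methionine and choline (MCD, n = 12) or on its control diet (n = 12). The study used the MCD diet as a mouse model of steatosis with fibrosis. No transgene, allele or drug was used, and the labels gave neither the sex nor the age of the animal behind a library. Since whole tissue was sequenced, a change in the number of cells of a type and a change in RNA per cell cannot be told apart.

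Small leucine-rich proteoglycans are secreted proteins of the extracellular matrix built around a core of leucine-rich repeats, most of which carry chondroitin, dermatan or keratan sulfate chains. They bind collagen fibrils and influence fibril spacing and growth, and several also bind growth factors or innate immune receptors. Versican is a large chondroitin sulfate proteoglycan that binds hyaluronan in loose, provisional matrix. In liver the small leucine-rich members examined here are mainly products of mesenchymal cells such as stellate cells and portal fibroblasts.

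Total counts were 16793207 to 24915175 in control and 16388650 to 24577848 in MCD libraries, and 3 counts, the floor for a resolved level, corresponded to 0.134 to 0.227 CPM (counts scaled to a library size of 1e+06) and 0.109 to 0.158 CPM. TMM factors, which correct library size for composition, were 0.642 to 0.973 in control and 1.07 to 1.26 in MCD livers. Scaling by total counts alone moved the median over all tested genes, as a log2 fold change, from -0.10 to 0.27. Alb, the albumin gene expressed by hepatocytes, was at 79836 ± 18360 CPM under the control and 51883 ± 6845 CPM under the MCD diet (SD, n = 12 each). It does not stand for all hepatocyte genes. Of 8 hepatocyte markers 2, Alb and Ttr, fell past the limits given below and 6 did not pass.

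In MCD livers 6 of the 9 genes were higher, namely Lum, Vcan, Fmod, Bgn, Dcn and Prelp, with fold changes from 1.56 for Prelp to 8.88 for Lum. A gene was called when its edgeR false discovery rate (FDR) was at most 0.01 and its log2 fold change was beyond 0.5 in size. Of all tested genes, 19.2% were called higher and 19.1% lower, or 2712 and 2688 genes. The split was 3261 and 1710 with upper-quartile factors and 4539 and 848 with total counts alone. No member was called lower by edgeR, DESeq2 or limma-voom (0 of 9 each), and 1, Ogn, was lower at an unadjusted edgeR p under 0.05. Podn did not pass either limit. Every MCD library exceeded every control library for 3 of the genes, Lum, Fmod and Vcan, a separation found in 9.5% of tested genes. Vcan passed the low-count filter only through its MCD libraries, and without it 5 of the other 8 genes were higher and 2, Lum and Fmod, were separated.

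**Figure D1:**
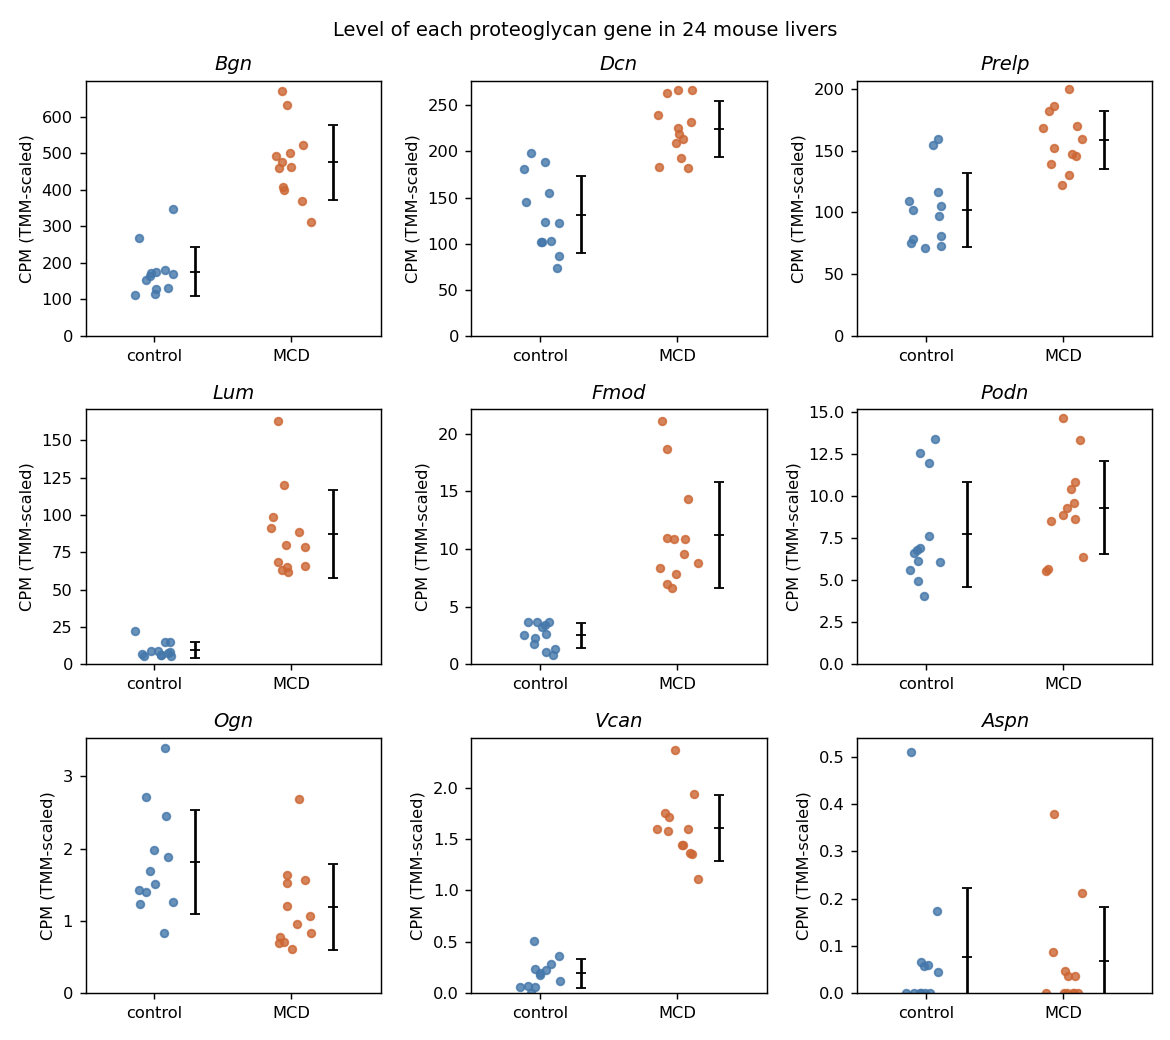
Level of each of the 9 genes in CPM (TMM-scaled, linear axis from 0, a separate scale for each gene) in 12 control and 12 MCD livers. Points are libraries, and the bar beside them is the mean ± SD, which stops at the axis where it would pass 0. The Lum, Fmod and Vcan points of MCD livers lie above all control points, the Podn and Ogn points overlap, and most Aspn points lie at or near 0.

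Promoter sequence is shown for the 4 genes called higher that had an entry in the RefSeq promoter table (GRCm38.p6), as members that moved in the same direction. The table held 7 of the 9 genes, and Dcn and Lum were without an entry. Each line gives the 250 bases before the annotated start, 5′ to 3′ on the gene's strand, and the capitals mark GGGCGG, the GC box bound by Sp-family factors, on either strand.
Bgn, chrX:73483351-73483600, plus strand: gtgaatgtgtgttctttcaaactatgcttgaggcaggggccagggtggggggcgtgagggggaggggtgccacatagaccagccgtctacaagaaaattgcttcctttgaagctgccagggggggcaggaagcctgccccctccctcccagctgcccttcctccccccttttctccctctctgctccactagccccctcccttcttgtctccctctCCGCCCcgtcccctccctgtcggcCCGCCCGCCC
Vcan, chr13:89742513-89742762, minus strand: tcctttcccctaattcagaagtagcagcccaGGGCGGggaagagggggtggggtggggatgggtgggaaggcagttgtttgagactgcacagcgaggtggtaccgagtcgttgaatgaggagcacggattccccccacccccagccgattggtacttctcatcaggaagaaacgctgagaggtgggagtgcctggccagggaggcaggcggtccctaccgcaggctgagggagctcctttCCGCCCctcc
Fmod, chr1:134037004-134037253, plus strand: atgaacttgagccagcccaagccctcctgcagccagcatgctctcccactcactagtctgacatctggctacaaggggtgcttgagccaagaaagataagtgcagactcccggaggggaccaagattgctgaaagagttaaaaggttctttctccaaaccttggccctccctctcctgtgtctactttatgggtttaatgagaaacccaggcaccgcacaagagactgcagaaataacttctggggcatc
Prelp, chr1:133921402-133921651, minus strand: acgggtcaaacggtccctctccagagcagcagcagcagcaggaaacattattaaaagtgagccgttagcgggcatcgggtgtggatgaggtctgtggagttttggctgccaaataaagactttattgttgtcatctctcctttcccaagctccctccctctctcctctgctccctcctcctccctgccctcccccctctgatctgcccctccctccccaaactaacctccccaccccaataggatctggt
The Bgn window held 3 GC boxes, at 34, 10 and 6 bases before the start, the latter ones overlapping. The Vcan window held 2, at 219 and 10 bases. GC boxes were present in 32.7% of 32851 RefSeq promoter windows of the same length. None of the 4 windows matched TATAAA (the TATA box, in 12.4% of windows), TGANTCA (the AP-1 site, 6.75%), GGAATG (the TEAD site, 12.6%) or CAGACA (the SMAD box, 17.1%), searched on both strands. Fmod and Prelp had no match to any of the 5 motifs, and GC content was 64.4% for Bgn, 62.4% for Vcan, 55.6% for Prelp and 51.2% for Fmod. These matches describe letters in the windows and are not evidence of binding.

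Dcn and Bgn, the class I members whose proteins carry chondroitin or dermatan sulfate, rose. Dcn (ENSMUSG00000019929) encodes decorin, the type member of the family, which binds fibrillar collagen and TGF-beta. Its level was 73.5 CPM in the lowest, 123 in the median and 198 in the highest control library, and 182, 222 and 267 CPM in MCD livers. The groups overlapped narrowly, with 9 of 12 MCD livers above every control. The mean went from 132 ± 41.4 to 224 ± 30.5 CPM (SD, n = 12 each), a log2 fold change of 0.77 (SE 0.14, 95% interval 0.48 to 1.05, edgeR FDR 2.83e-05).

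Bgn (ENSMUSG00000031375), on chromosome X at 73483602 to 73495933, encodes biglycan, which in soluble form is a ligand of Toll-like receptors. Control livers had 112 CPM at the lowest, 167 at the median and 346 at the highest, and MCD livers 313, 470 and 670 CPM. A single MCD liver fell inside the control range, below 1 control library at 346 CPM. The log2 fold change was 1.43 (SE 0.16, 95% interval 1.09 to 1.77, edgeR FDR 3.19e-08). Aspn (ENSMUSG00000021388), the class I gene of asporin, which lacks such chains and binds calcium and TGF-beta, had 18 counts over all control and 19 over all MCD libraries. Its counts ran from 0 to 11 and from 0 to 9, with 0 counts in 6 libraries of each diet, so no difference in Aspn was detectable at this depth.

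Lum, Fmod and Prelp, of class II, rose by unequal amounts. Lum (ENSMUSG00000036446) encodes lumican, a keratan sulfate proteoglycan that regulates collagen fibril assembly. It was at 5.72, 7.92 and 22.6 CPM (lowest, median, highest) in control livers and at 62.2, 79.2 and 163 CPM in MCD livers. The lowest MCD liver was well above the highest control liver, and the log2 fold change of 3.15 (SE 0.23, 95% interval 2.68 to 3.62, edgeR FDR 1.49e-11) was the largest of the 8 tested members.

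Fmod (ENSMUSG00000041559) encodes fibromodulin, which competes with lumican for collagen and modulates its crosslinking. Its levels were 0.825, 2.60 and 3.69 CPM in control and 6.64, 10.2 and 21.1 CPM in MCD livers, from 14 to 73 and 142 to 514 counts. The groups did not overlap, and the log2 fold change was 2.16 (SE 0.24, 95% interval 1.67 to 2.65, edgeR FDR 1.74e-08). Prelp (ENSMUSG00000041577), whose protein has a heparin-binding end and anchors basement membrane to the underlying connective tissue, changed less. It was at 71.1, 99.6 and 159 CPM in control and 122, 156 and 199.8 CPM in MCD livers, so that 6 of 12 MCD livers lay above every control. The log2 fold change was 0.64 (SE 0.13, 95% interval 0.37 to 0.90, edgeR FDR 0.00011).

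Ogn (ENSMUSG00000021390) encodes osteoglycin, also called mimecan, a class III member. It was sparse, with 11 to 60 counts in control and 13 to 63 in MCD libraries. Its levels were 0.832, 1.60 and 3.39 CPM in control and 0.608, 1.01 and 2.68 CPM in MCD livers. The groups overlapped, with 4 MCD livers below every control, and the log2 fold change of -0.61 (SE 0.24, 95% interval -1.10 to -0.11) did not pass (edgeR FDR 0.0311). Without MCD replicate 8, the MCD liver with the highest Ogn, the value was -0.73 and passed (edgeR FDR 0.00598).

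Podn (ENSMUSG00000028600) encodes podocan, a collagen-binding member of a separate class. Control livers had 4.07, 6.71 and 13.4 CPM and MCD livers 5.57, 9.10 and 14.6 CPM, and only 1 MCD liver was above every control. The log2 fold change was 0.27 (SE 0.19, 95% interval -0.12 to 0.66, edgeR FDR 0.217). With total counts alone the Podn value was 0.65 and passed (edgeR FDR 0.00699), in a scaling in which the median of all genes was 0.27.

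Vcan (ENSMUSG00000021614) is the one member with a large core protein and many chondroitin sulfate chains. It was close to the floor in control livers, with 0 to 9 counts and a median of 3, against 26 to 65 counts and a median of 38 in MCD livers. In CPM the control values were 0, 0.185 and 0.509 and the MCD values 1.11, 1.58 and 2.36. The groups did not overlap, and the log2 fold change was 2.98 (SE 0.27, 95% interval 2.43 to 3.54, edgeR FDR 5.86e-10). Its fold change rests on few control counts.

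**Figure D2:**
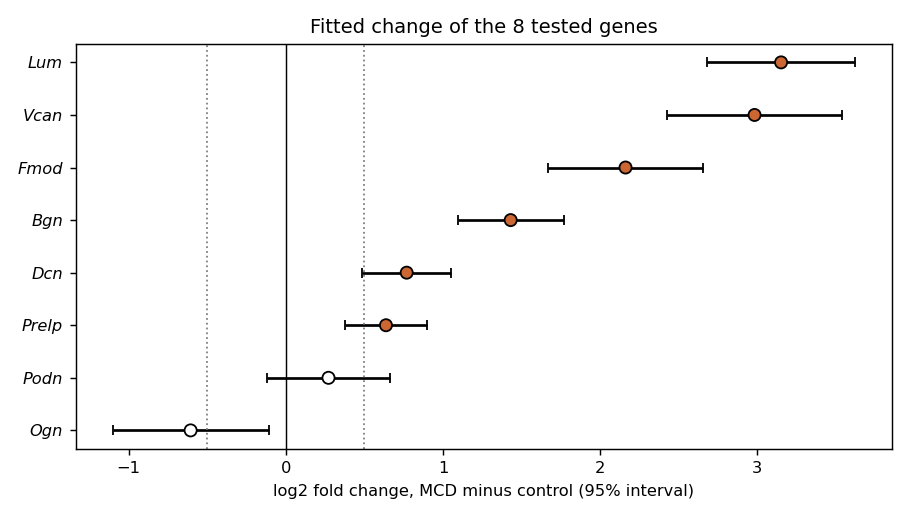
Fitted log2 fold change (MCD minus control) of the 8 tested genes with 95% intervals, from 12 control and 12 MCD livers. Filled points passed both limits, the dotted lines mark the fold limit of 0.5, and the order runs from Lum at 3.15 to Ogn at -0.61.

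Levels of different genes were compared per kilobase of the longest annotated transcript. Bgn was the most abundant in both diets, at 66.2 ± 25.5 CPM per kb in control and 178 ± 38.2 in MCD livers (SD, n = 12 each). In control livers Prelp (28.2 ± 8.29 CPM per kb) and Dcn (28.0 ± 8.83) followed, then Lum (3.99 ± 2.12), Podn (2.12 ± 0.858), Fmod (0.806 ± 0.340), Ogn (0.707 ± 0.282), Aspn and Vcan. The ranges of neighbours in this order overlapped except between Dcn and Lum and between Ogn and Aspn. In MCD livers the order was Bgn, Dcn (47.8 ± 6.50), Prelp (43.8 ± 6.50), Lum (35.6, from 25.4 to 66.5), Fmod (3.60 ± 1.47), Podn (2.56 ± 0.762), Ogn (0.463 ± 0.231), Vcan (0.129 ± 0.0259) and Aspn. There the ranges of neighbours overlapped from Dcn to Lum, between Fmod and Podn and between Vcan and Aspn.

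As a share of the summed per-kilobase level of the 9 genes, Lum rose from a mean of 2.99% in control to 11.2% in MCD livers, while Dcn went from 22.1% to 15.6%, Prelp from 21.8% to 14.2% and Bgn from 50.2% to 56.9%. The control share of Lum ran from 1.92% to 4.36% and the MCD share from 8.52% to 15.1%, with no overlap. These shares were not tested, and they depend on the length used. With merged exons in place of the longest transcript, Bgn had 28.9 CPM per kb in control livers, close to Prelp at 28.2 and Dcn at 22.5, and in MCD livers Prelp (43.8) was above Dcn (38.4).

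To ask whether the members changed by different amounts, each gene was divided by Dcn within the same library, a ratio that does not depend on library scaling. Of 8 ratios, 5 differed between the diets, 4 higher and 1 lower in MCD livers (two-sided permutation tests, adjusted over the 8 ratios). Dcn itself rose by 0.77 on the log2 scale, so a gene with no change of its own would have a lower ratio. The share of all genes whose ratio to Dcn differed was not computed. The log2 ratio of Lum to Dcn went from -3.82 ± 0.39 to -1.41 ± 0.33 (SD, n = 12 each), a difference of 2.41 with every MCD liver above every control (permutation test, adjusted p = 8e-05). For Vcan the difference was 2.36 with the same separation, for Fmod 1.38 with 5 MCD livers above every control, and for Bgn 0.66 with 1. Their adjusted permutation p-values were 8e-05, 0.00014 and 0.00302. The Vcan value rests on few control counts, so that 3 ratios (Lum, Fmod and Bgn) were higher without it, and was 1.73 when 2 counts in place of 0.5 were added before the ratio.

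Ogn was the gene whose ratio to Dcn was lower, by -1.47 on the log2 scale (permutation test, adjusted p = 8e-05), and 9 of 12 MCD livers were below every control. The Prelp ratio differed by -0.15 (permutation test, adjusted p = 0.319). Podn differed by -0.52 with a permutation p of 0.0481 and an adjusted p of 0.0632. Aspn was at the floor and its ratio is not read.

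Against Col1a1, the gene of the main chain of type I collagen, 6 of the 8 ratios other than that of Aspn were lower in MCD livers and 2 did not pass (two-sided permutation tests, adjusted over 9 ratios). The Aspn ratio, with counts at the floor, is again not read. Col1a1 itself went from 29.8 ± 24.1 to 219.9 ± 47.2 CPM. Because Col1a1 rose, a gene with no change of its own would also have a lower ratio. The share of all genes with a lower ratio was not computed, so the count is not read as particular to these members. The log2 ratio of Dcn to Col1a1 fell from 2.54 ± 1.09 to 0.05 ± 0.25, a difference of -2.50 with all 12 MCD livers below every control. Prelp (-2.64), Podn (-3.02) and Ogn (-3.97) showed the same separation. Each of these 4 had an adjusted p of 3.6e-05 by permutation test.

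Bgn and Fmod fell less against Col1a1, by -1.84 and -1.12, with 11 and 6 MCD livers below every control (permutation tests, adjusted p = 3.6e-05 and 0.000939). The ratios of Lum and Vcan to Col1a1 differed by -0.09 and -0.13 (permutation tests, adjusted p = 0.757 each), with control livers spread from -2.42 to 0.23 for Lum on the log2 scale and MCD livers inside that range. For Vcan the difference was -0.76 and passed (permutation test, adjusted p = 0.038) when 2 counts were added.

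**Figure D3:**
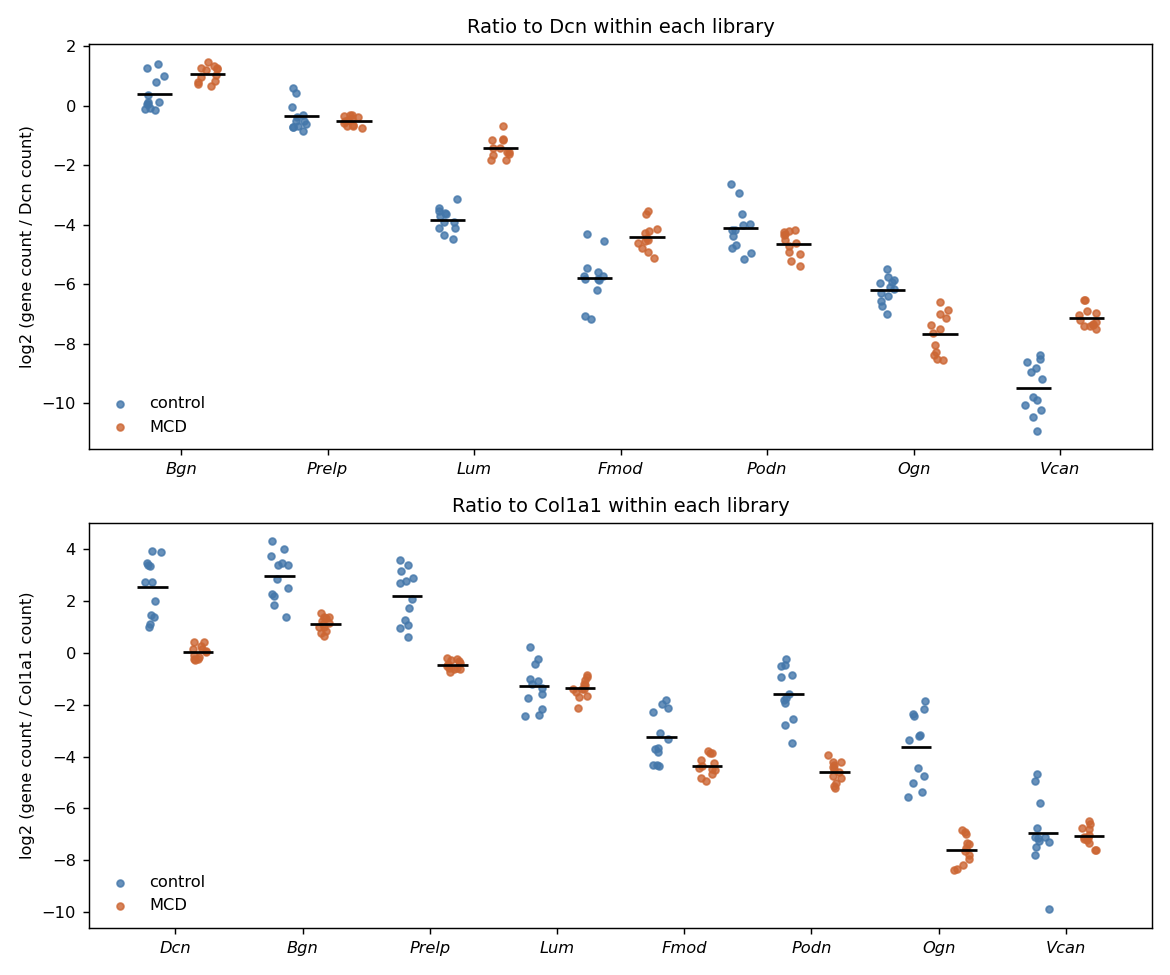
Log2 ratio of each gene's count to the Dcn count (upper panel) and to the Col1a1 count (lower panel) in each of 12 control and 12 MCD livers, with 0.5 added to both counts and horizontal bars at the group means. Aspn is left out because it was at the floor. Lum and Vcan moved up against Dcn by 2.41 and 2.36 and shifted by -0.09 and -0.13 against Col1a1. The Vcan values rest on few control counts and were 1.73 and -0.76 with 2 counts added.

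Within a diet, the correlation of log2 CPM with Dcn was computed for each of the other 7 tested genes, giving 14 relations. In control livers Pearson's r ran from -0.16 (Podn) to 0.79 (Lum). Lum alone passed, with r = 0.786 (permutation p = 0.00201, adjusted p = 0.0281), Spearman's rho = 0.706 (permutation p = 0.013, adjusted p = 0.0911) and r = 0.776 after removal of the 2 livers with the most extreme Dcn (permutation test, adjusted p = 0.102). Without those livers r was nearly the same, but the call was lost with the 10 that remained. Vcan (r = 0.652, permutation p = 0.0229) and Ogn (r = 0.642, permutation p = 0.0243) had an adjusted p of 0.0686 in control livers. With total counts alone 8 of the 14 relations passed. In MCD livers r ran from -0.11 (Ogn) to 0.71 (Prelp) and 0 relations passed after adjustment, with 2, Prelp and Lum, at an unadjusted permutation p of 0.0109 and 0.0245.

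Several members are genomic neighbours. On chromosome 10 (GRCm38) Dcn lies at 97479609 to 97518143 and Lum at 97565128 to 97572703, 47.0 kb apart on the plus strand, and rose by 0.77 and 3.15 on the log2 scale. Beyond Lum lie Kera and Epyc, members known from cornea and cartilage, which had 0 counts in all 24 libraries. On chromosome 1, Prelp (133910304 to 133921414, minus strand) and Fmod (134037254 to 134048277, plus strand) are 116 kb apart, and Optc, 2.3 kb from Prelp, had at most 6 counts in any library.

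On chromosome 13 lies the row of Ecm2, Aspn (49544443 to 49567565), Omd and Ogn (49608046 to 49624501), all on the plus strand. None of these was called. Ecm2 had a log2 fold change of 0.32 (edgeR FDR 0.130) and Omd of 0.26 (edgeR FDR 0.687). Vcan is on the same chromosome at 89655312 to 89742509, and Podn is on chromosome 4 at 108014791 to 108096445. Exons of Prelp overlap the opposite-strand gene Gm15851, which had 0 to 3 counts, and exons of Aspn overlap Cenpp, which had 0 to 23. Whether the counting used strand is not given in the sources used here.

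Some livers were high for many members at once. Control replicate 4 was the highest control liver for 6 genes, Dcn, Bgn, Lum, Ogn, Prelp and Vcan, and MCD replicate 8 the highest MCD liver for 6, Bgn, Lum, Fmod, Ogn, Prelp and Podn. The same libraries were the highest of their diet for the summed portal fibroblast markers, at 59.1 and 257 CPM, and for the summed stellate cell markers. Control replicate 4 was also the highest control for smooth muscle (40.2 CPM) and monocyte and recruited macrophage markers (83.2 CPM). MCD replicate 8 was the highest MCD liver for cholangiocyte markers (916 CPM) and the lowest for Kupffer cell markers (81.3 CPM). Spp1 was on average the largest part of the cholangiocyte sum. Without both, 6 members remained called higher, and the log2 fold changes were 0.86 for Dcn, 1.55 for Bgn, 3.26 for Lum, 2.14 for Fmod, 0.72 for Prelp and 3.24 for Vcan.

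Markers of mesenchymal cells are given beside the members, against 19.2% of all tested genes called higher and 19.1% lower. Of 10 portal fibroblast markers 7 were tested and all 7 rose, among them Eln (3.26), Dpt (3.25) and Cd34 (2.62, log2 fold changes), and their summed level was 16.2 to 59.1 CPM in control and 102 to 257 CPM in MCD livers. Of 10 stellate cell markers 5 rose, with Pdgfrb at 1.69 and Hand2 at 1.45, and 2 fell, Colec10 at -3.17 and Lrat, the enzyme that esterifies stored retinol, at -0.93. Their summed level overlapped more, at 141 to 281 and 197 to 299.5 CPM. Of 6 mesothelial markers 4 were tested and 2 rose (summed 1.28 to 7.97 and 5.98 to 16.4 CPM), and of 5 smooth muscle markers 3 were tested, with Tagln, also a stellate marker in the list above, rising and Myh11 falling (13.7 to 40.2 and 26.9 to 48.3 CPM).

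Markers of other cells are given beside the same shares, 19.2% of all tested genes higher and 19.1% lower. All 9 monocyte and recruited macrophage markers and all 6 cholangiocyte markers rose, from summed levels of 24.2 to 83.2 and 30.2 to 147 CPM in control to 607 to 1286 and 456 to 916 CPM in MCD livers. Single genes made up most of these MCD sums, Gpnmb with a mean of 568 CPM and Spp1 with a mean of 593 CPM. Chil3, F13a1 and Cldn4 were near the floor in control livers, at means of 0.230, 0.282 and 0.274 CPM, so their rises rest on few control counts. Lymphocyte markers rose in 4 of 6 (3.58 to 9.58 and 10.4 to 19.5 CPM). Of the Kupffer cell markers 5 of 6 fell (149 to 445 and 81.3 to 297 CPM), and of the endothelial markers 5 of 7 (198 to 293 and 118 to 183 CPM). Of 8 hepatocyte markers 2 fell and 6 did not pass, which is near the share of all genes called lower. No marker list was at 0 throughout, and the part of cell composition in the proteoglycan values was not tested.

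The genes most like each member in their variation among livers of the same diet were found by Pearson's r of diet-centred log2 CPM over the 24 libraries, among 13097 genes of at least 1 CPM. These are descriptions, and libraries share depth and tissue make-up. For Lum they were Adamts5, a protease that cleaves versican and aggrecan (r = 0.910), and Dpt, the gene of dermatopontin (r = 0.909), itself a portal fibroblast marker in the list above. For Dcn they were Pam, a peptide-amidating enzyme (r = 0.935), and Heph, a copper-dependent ferroxidase (r = 0.889), and for Bgn Ltbp3 and Gdf10 (r = 0.890 each), a latent TGF-beta binding protein and a TGF-beta family ligand.

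Fmod was most like Ltbp2, another protein of the latent TGF-beta binding protein family (r = 0.844), and Cyp2s1 (r = 0.825). Prelp was most like Arrb1 (r = 0.912) and Angptl2 (r = 0.908), and Ogn like Cd207 (r = 0.712) and Smo (r = 0.680). The Vcan pair, Plekha2 (r = 0.799) and Mamld1 (r = 0.795), had r of 0.862 and 0.866 in control livers, where Vcan had 0 to 9 counts, and 0.225 and 0.229 in MCD livers.

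The rest of the pathway was read from lists, by counts and medians beside the 2712 genes higher, 2688 lower and the median of -0.10 over all 14109 tested genes. Of 9 other small leucine-rich proteoglycans 5 were tested, of which 1 was lower and 4 did not pass, with a median log2 fold change of 0.26. Chad, the gene of chondroadherin, fell by 1.24 on the log2 scale (1.21 ± 0.461 to 0.514 ± 0.147 CPM, edgeR FDR 1.76e-05). Tsku, the gene of tsukushi, a protein secreted by liver, was at 116 ± 44.2 and 130 ± 40.1 CPM (log2 fold change 0.17, edgeR FDR 0.476).

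Of 20 other proteoglycan genes 16 were tested, with 3 higher, 2 lower and a median of -0.02. The higher genes were Gpc2 (2.05, a glypican, which carries heparan sulfate at the cell surface), Srgn (0.92, serglycin of blood cell granules) and Agrn (0.54, agrin), and the lower were Gpc6 (-1.50) and Sdc2 (-0.63, a syndecan of the cell surface), all as log2 fold changes. Like Vcan, Gpc2 was close to the floor in control livers, with a mean of 0.303 CPM and at most 10 counts. Its call rests on few control counts. Of 15 genes of hyaluronan and its link proteins only 4 were tested. Cd44, the hyaluronan receptor, rose from 9.83 ± 3.24 to 38.7 ± 4.86 CPM (log2 fold change 1.97, edgeR FDR 1.12e-11), and Hyal1, a lysosomal hyaluronidase, fell by 1.14. The hyaluronan synthases Has1, Has2 and Has3 were not tested and reached at most 12 counts in any library.

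Of 7 proteases that cleave versican, 5 were tested and 4 rose, with a median log2 fold change of 1.39. Among them were Adamts5 (2.47, SE 0.19), Adamts15 (1.64, SE 0.25) and Adamts9 (1.39, SE 0.21). The remaining riser, Adamts4, was low, at 0.252 CPM in control and 0.661 CPM in MCD livers, so its call rests on few counts. Adamts1 was at 12.4 ± 4.12 and 11.6 ± 2.58 CPM (log2 fold change -0.09, edgeR FDR 0.641).

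All 22 genes of the linker and of chondroitin or dermatan sulfate synthesis were tested, with 7 higher, 3 lower and a median of 0.29. Chst11, a chondroitin sulfotransferase, rose most, from 0.529 ± 0.455 to 4.34 ± 0.947 CPM. Xylt1 (2.38, SE 0.22), which starts the linker, Chst12 (1.63, SE 0.20), a sulfotransferase like Chst11, and Chpf (1.30, SE 0.15), which acts in chain polymerization, followed on the log2 scale. Chst14 (0.70), which sulfates dermatan, rose less. The genes that fell were Csgalnact1 (-1.20), which starts chondroitin chains, Chsy3 (-0.80), a chain synthase, and Chst13 (-0.51), a sulfotransferase. Of 7 keratan sulfate genes 3 were tested and 1, B4galt4, rose (0.82), with a median of 0.02.

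The propeptide of some members is removed by Bmp1, a procollagen C-proteinase, which fell from 179 ± 31.0 to 122 ± 18.9 CPM (log2 fold change -0.55, edgeR FDR 2.79e-05). Of its list of 5, 3 were tested, with 1 higher, Pcolce (1.10), and 2 lower, Bmp1 and Pcolce2 (-1.37), both Pcolce genes encoding enhancers of the enzyme.

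Of 13 ligands and receptors that the core proteins bind, 8 were higher and 2 lower, with a median of 0.89. The TGF-beta ligands rose together, Tgfb3 by 2.87 (SE 0.24), Tgfb2 by 2.51 (SE 0.29) and Tgfb1 by 1.21 (SE 0.13) on the log2 scale. The receptors of soluble biglycan also rose, Tlr2 by 1.86, P2rx7 by 1.05 and Tlr4 by 0.89. Itga2, a chain of a collagen-binding integrin, rose by 2.84 from a mean of 0.168 CPM. It had at most 10 counts in any control library, so its call and fold change rest on few control counts. Igf1r, a receptor bound by decorin, rose by 0.72, while the decorin-binding receptors Erbb4 (-0.81) and Met (-0.62) fell and Egfr was at -0.30 (edgeR FDR 0.431).

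**Figure D4:**
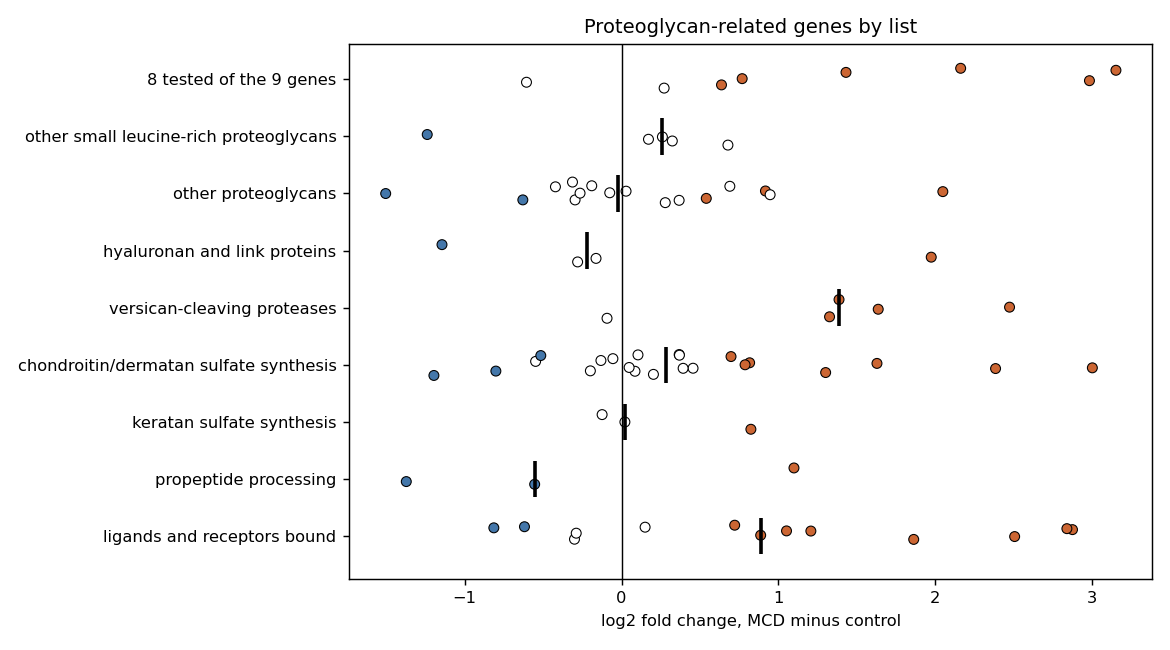
Log2 fold change (MCD minus control, horizontal axis) of each tested gene in the lists of the proteoglycan pathway, with 1 point per gene, orange for genes called higher, blue for called lower and white for neither, and a vertical bar at the median of each list but the first. Versican-cleaving proteases had a median of 1.39, ligands and receptors of 0.89 and other small leucine-rich proteoglycans of 0.26.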

How the data were processed

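Poly(A) RNA of whole livers from 12 control and 12 MCD mice was analysed. The authors deposited raw counts per Ensembl gene, 1 column per library with no normalization. The submitters' processing notes name bcl2fastq, STAR 2.7.3a and mm10, and the study's methods, which describe alignment to a human reference, name an exon quantification pipeline and PISCES for quantification. Which of these made the mouse counts, their annotation release and the strand setting are not given in the sources used here. Of 56205 rows, 51745 were named by GENCODE mouse release M21 (GRCm38), which also gave coordinates and lengths, and 2122 carried newer identifiers that M21 does not hold. 0 sample columns were left unused. The low-count filter was applied here, not in the deposited counts, since 28652 rows were 0 in every library.

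Counts were filtered with filterByExpr, scaled with TMM and compared by the edgeR 4.0.16 quasi-likelihood test over all 24 libraries with no covariate (R 4.3.3), with Benjamini-Hochberg FDR over 14109 genes. The biological coefficient of variation was 26.8%. On simulated counts of 14034 genes with means and dispersions from this comparison, 181 of 199 changed genes were recovered with 0 false calls. Few genes were changed there, drawn in equal numbers up and down, so the simulation cannot show error from scaling or composition. CPM was computed with TMM-adjusted totals, and a prior count of 2 was used for log2 CPM. Ratios added 0.5 to both counts. Two-sided permutation tests drew 100000 resamples (scipy 1.17.1, numpy 2.4.6, Python 3.11.15), and ratios and relations were called at an adjusted p of 0.05. The design listed 16 relations to Dcn, but 14 were made because Aspn was not tested. Intervals are 95%, and floors of 3 counts cover counting error only. Figures used matplotlib 3.10.9.

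The members, lists and tests were chosen with earlier results of these data known. All 9 members are named. In each list the up to 3 genes with the largest rise and fall past the limits with a mean of at least 1 CPM were named, besides genes whose role is described. Some further genes were named because they made up much of a marker sum or were low in control livers. The 2 most alike genes of each tested member were named, except for Podn, for which they are not reported here.

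Alternatives were DESeq2 1.42.0, limma-voom (limma 3.58.1), scaling by relative log expression, upper quartile or total counts, fits on unfiltered genes or on those with 10 or more counts everywhere, a score of sex-linked genes as covariate, a replicate block, other limits, another pseudocount and leaving out each library in turn. Merged exon length and leaving out control replicate 4 with MCD replicate 8 were chosen after seeing the data.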

Additional observations from a re-analysis of the deposited data

How the results depend on the processing

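The 6 genes called higher numbered 6 also with DESeq2, limma-voom, relative log expression or upper-quartile scaling, unfiltered genes and the sex-linked score, and when any single library was left out. The count was 7 with total counts alone, where Podn joined, 5 with at least 10 counts in every sample, where Vcan could not be fitted, and 4 with a log2 limit of 1, which Dcn (0.77) and Prelp (0.64) did not reach. The number called lower was 0 or 1 when single libraries were left out, 1 only without MCD replicate 8, and 1 when the FDR limit was 0.05 with no limit on the fold, in both cases Ogn. Across the alternatives other than left-out libraries, log2 fold changes ran from 0.77 to 1.11 for Dcn, 1.43 to 1.78 for Bgn, 3.14 to 3.50 for Lum, 2.16 to 2.54 for Fmod, -0.63 to -0.24 for Ogn, 0.64 to 0.97 for Prelp, 0.25 to 0.65 for Podn and 2.98 to 3.32 for Vcan. Without single libraries they ran from 0.72 to 0.83, 1.38 to 1.56, 3.07 to 3.33, 2.07 to 2.25, -0.73 to -0.49, 0.60 to 0.74, 0.21 to 0.41 and 2.90 to 3.20. With the replicate block 6 genes were called higher and 0 lower, with log2 fold changes of 0.82 for Dcn, 1.48 for Bgn, 3.23 for Lum, 2.18 for Fmod, -0.63 for Ogn, 0.68 for Prelp, 0.31 for Podn and 3.07 for Vcan. Of 12 same-numbered pairs 8 correlated above 0.1 (r from -0.28 to 0.35, median 0.233 against -0.0592 for other pairs), and 2 of 12 libraries correlated best with their own number. Same-numbered libraries were thus somewhat more alike than others. The labels give no litter or batch for a number, so the main fit took no pairing, and what the numbers share was not tested. The ratio to Col1a1 ran from -0.189 to 0.0519 for Lum and from -0.404 to 0.0704 for Vcan when single libraries were left out. It turned positive without control replicate 7 (0.0519 for Lum and 0.0704 for Vcan) and without control replicate 10 (0.0107 for Lum and 0.0483 for Vcan), none past the threshold. The Podn to Dcn ratio passed in 6 of 24 fits that left out a library (permutation tests, adjusted p 0.0223 to 0.0488). Of the 14 relations to Dcn, 8 passed with total counts alone and 0 without the 2 farthest libraries, and r turned sign for Podn in control (0.0751) and Ogn in MCD livers (0.163) with total counts alone and for Ogn in MCD livers (0.0181) without those libraries; the cause was not tested. Low counts limited Aspn, Vcan in control livers and Ogn.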
